A study of Mus musculus with 20 samples.

Results

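The Notch pathway was followed through 10 genes, chosen by their symbols among the 43280 genes in the expression files. They are the ligands *Dll1*, *Dll4*, *Jag1* and *Jag2*, the receptors *Notch1*, *Notch2*, *Notch3* and *Notch4*, and the targets *Hes1* and *Hey1*. All 10 were present in every RNA library, and all passed the filter on low counts in both the embryonic and the adult tests. The embryonic samples were GFP+ cells sorted at E13.5 from the stomach and the intestine of mice labelled C57BL/6, although the methods give the floxed *Eed* allele and the reporter on mixed backgrounds. Controls were Bapx1-cre;Rosa26mTmG and *Eed* KO mice were Eedfl/fl;Bapx1-cre;Rosa26mTmG, so both genotypes carried the *Bapx1*-driven Cre and the Cre reporter. *Eed* is a core subunit of PRC2, the complex that methylates lysine 27 of histone H3. RNA was sequenced in 2 libraries of each organ and genotype. Open chromatin of the same 4 conditions was profiled by ATAC-seq, with 1 peak list each. Adult samples were GFP+ stromal cells sorted after tamoxifen from the small intestine of mice of about 10 weeks. There were 2 control libraries (Pdgfrβ Cre-ERT2/+;Rosa26mTmG) and 2 *Eed* KO libraries (Pdgfrβ Cre-ERT2/+;Eed fl/fl;Rosa26mTmG). In both, the *Pdgfrb* promoter drives a tamoxifen-inducible Cre, from a line that the methods also give on a mixed background.

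Notch receptors are single-pass membrane proteins that are activated by ligands on neighbouring cells. Binding leads to cleavage by an ADAM protease and then by γ-secretase, and the released intracellular domain enters the nucleus, where it joins the DNA-binding protein RBPJ and Mastermind coactivators to activate genes such as *Hes1* and *Hey1*. In blood vessels *Dll4* marks arterial and sprouting endothelial cells, *Notch4* is largely an endothelial receptor, and *Notch3* is the receptor of pericytes and vascular smooth muscle.

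The promoters of the ligands and the receptor that passed a test between *Eed* KO and control cells are shown first, since the fold changes and the open chromatin below refer to them. Each sequence covers the 250 bases before the RefSeq transcription start on GRCm38.p6, the assembly of the deposited coordinates (mm10). It is written on the strand of the gene from 5′ to 3′, with every CG dinucleotide in capitals, because PRC2 is known to gather at CpG-rich promoters. The windows are chr2:119325534-119325783 (plus strand) for *Dll4*, chr12:112929496-112929745 (minus) for *Jag2*, chr2:137116521-137116770 (minus) for *Jag1*, chr17:15376933-15377182 (minus, the upstream of 2 RefSeq starts) for *Dll1* and chr3:98013288-98013537 (plus) for *Notch2*. The genes themselves span chr2:119325784-119335962 (*Dll4*), chr12:112908590-112929495 (*Jag2*), chr2:137081456-137116644 (*Jag1*), chr17:15367354-15376872 (*Dll1*) and chr3:98013538-98150367 (*Notch2*) in the GENCODE annotation.
Dll4 promoter: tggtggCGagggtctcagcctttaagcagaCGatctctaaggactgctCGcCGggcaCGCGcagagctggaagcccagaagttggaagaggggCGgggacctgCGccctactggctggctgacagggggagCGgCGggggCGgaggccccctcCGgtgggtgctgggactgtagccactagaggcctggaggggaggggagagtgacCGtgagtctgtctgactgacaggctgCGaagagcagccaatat
Jag2 promoter: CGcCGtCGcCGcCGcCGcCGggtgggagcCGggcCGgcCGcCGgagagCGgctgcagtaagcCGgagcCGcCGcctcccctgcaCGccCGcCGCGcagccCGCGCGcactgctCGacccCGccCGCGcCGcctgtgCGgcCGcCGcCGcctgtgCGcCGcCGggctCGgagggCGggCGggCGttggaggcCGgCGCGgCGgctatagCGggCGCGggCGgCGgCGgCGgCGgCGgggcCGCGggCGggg
Jag1 promoter: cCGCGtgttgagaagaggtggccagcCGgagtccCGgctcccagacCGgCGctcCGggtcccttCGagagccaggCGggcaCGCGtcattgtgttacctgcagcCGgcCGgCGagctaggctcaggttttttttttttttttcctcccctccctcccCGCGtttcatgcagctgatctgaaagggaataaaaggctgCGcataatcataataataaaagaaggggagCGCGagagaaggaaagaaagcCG
Dll1 promoter: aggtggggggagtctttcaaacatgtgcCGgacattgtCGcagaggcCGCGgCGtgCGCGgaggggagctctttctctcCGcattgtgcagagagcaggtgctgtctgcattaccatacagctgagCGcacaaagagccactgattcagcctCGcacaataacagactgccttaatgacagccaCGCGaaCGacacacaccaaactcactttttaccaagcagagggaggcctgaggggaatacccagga
Notch2 promoter: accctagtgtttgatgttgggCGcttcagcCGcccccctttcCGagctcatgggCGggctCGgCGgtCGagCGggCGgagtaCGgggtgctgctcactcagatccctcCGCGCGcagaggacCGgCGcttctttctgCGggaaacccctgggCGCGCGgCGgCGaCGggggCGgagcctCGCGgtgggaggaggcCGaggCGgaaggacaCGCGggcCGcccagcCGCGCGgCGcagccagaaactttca
The *Jag2* promoter held 54 CG dinucleotides and was 87.2% G and C. *Dll4* held 14 in its window, *Dll1* 13, *Jag1* 20 and *Notch2* 34, against a median of 6 over 32851 RefSeq promoters of the same length, whose median G and C content was 52.4%. RefSeq promoters were found for 8 of the 10 genes, at 9 starts, and the genes with no entry were *Hes1* and *Hey1*. Among the other receptors, *Notch4* had 4 CG dinucleotides, *Notch3* 17 and *Notch1* 16, the last before a RefSeq start that lies inside the GENCODE gene, downstream of the GENCODE start. The RBPJ core motif, TGGGAA on either strand, was found in 0 of the 9 windows and in 21.6% of all promoter windows. The GC box GGGCGG on either strand was found in the *Dll4*, *Jag2*, *Notch1*, *Notch2* and *Notch3* windows, with 2 to 5 matches each, and in 32.7% of all windows. The Hes N-box CACNAG was found in the *Dll4*, *Notch1*, *Notch2* and *Notch3* windows and in 36.7% of all windows. These are matches of letters and do not show binding.

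Counts on genes ranged from 30236159 to 39606157 in the embryonic libraries and from 11404712 to 15903642 in the adult libraries. Levels are given as CPM, the read counts scaled to library size after TMM scaling, and comparisons between genes as TPM, which also divides by transcript length. A count of 0 allowed at most 0.0992 CPM in any embryonic library and 0.263 CPM in any adult library, limits that cover counting error only. *Eed* itself had 1193 to 1627 counts in the 4 embryonic control libraries and 270 to 427 in the 4 *Eed* KO libraries. It was 4.05-fold lower in the *Eed* KO intestine (adjusted p = 0.0046 by edgeR) and 4.32-fold lower in the *Eed* KO stomach (adjusted p = 0.0017). In the adult cells *Eed* counts were 406 and 477 in controls and 256 and 324 in *Eed* KO, a difference that did not pass (log2 fold change −0.32 ± 0.21 SE, adjusted p = 0.32). Spike-in counts were 26227 to 37590 in the embryonic controls and 4871 to 14932 in *Eed* KO, and scaling by them placed the median of all genes 1.85 higher in the *Eed* KO intestine and 2.39 higher in the *Eed* KO stomach on the log2 scale. All changes below are therefore relative to the bulk of the genes, and the spike-in totals cannot tell RNA content from the number of cells per library. The methods call the 2 libraries of a group biological replicates, but neither they nor the labels say which animals or pools went into each, and p-values measure the spread between these libraries. Fewer cells of a type and less RNA per cell cannot be told apart in these bulk samples.

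The embryonic control libraries held counts of all 10 genes, with *Notch2*, *Notch3*, *Hes1* and *Jag1* as the most abundant transcripts per length. Which cells of the sorted populations these came from was not tested. In the control intestine, *Notch2* was at 108.9 and 140.4 TPM, *Notch3* at 111.4 and 120.2 TPM, *Hes1* at 85.1 and 84.5 TPM and *Jag1* at 43.9 and 52.2 TPM. *Notch2* and *Notch3* overlapped in that order, and *Jag1*, *Hes1* and *Notch3* were separated from each other in both libraries. *Dll1* at 14.3 and 16.7 TPM and *Notch1* at 9.93 and 14.4 TPM overlapped, and *Hey1* lay below them at 8.55 and 9.53 TPM. The lowest were *Notch4* at 0.956 and 0.991 TPM, *Jag2* at 0.490 and 0.505 TPM and *Dll4* at 0.0860 and 0.213 TPM. The control stomach had *Notch2* at 101.5 and 107.5 TPM, *Notch3* at 97.6 and 106.6 TPM, and *Dll4* again at the bottom with 0.0687 and 0.141 TPM, from 3 and 7 counts.

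Receptor and ligand transcripts each came mainly from a pair of genes or from a single gene. Of the summed TPM of the 4 receptors, *Notch2* made up 49.0% ± 2.65 (SD, n = 2) and *Notch3* 45.9% ± 3.27 in the control intestine, with 4.76% ± 0.658 from *Notch1* and 0.386% ± 0.0385 from *Notch4*. In the control stomach the shares of *Notch2* and *Notch3* were 48.4% ± 0.942 and 47.3% ± 0.137. *Jag1* made up 74.8% ± 0.176 of ligand TPM in the control intestine and 78.1% ± 8.38 in the control stomach, and *Dll1* most of the rest. The share of *Jag2* in the stomach was 1.64% and 2.02% in controls and 6.47% and 7.27% in *Eed* KO. No test was made on the shares, whose libraries did not overlap between genotypes for *Jag2*. In adult cells *Jag1* made up 62.7% and 51.4% of ligand TPM in controls and 75.8% and 62.0% in *Eed* KO, and *Dll4* 10.7% and 13.3% in controls and 15.4% and 26.8% in *Eed* KO. The adult share of *Dll1* was 28.2% ± 4.57 in controls and 6.58% ± 1.12 in *Eed* KO.

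**Figure D1:**
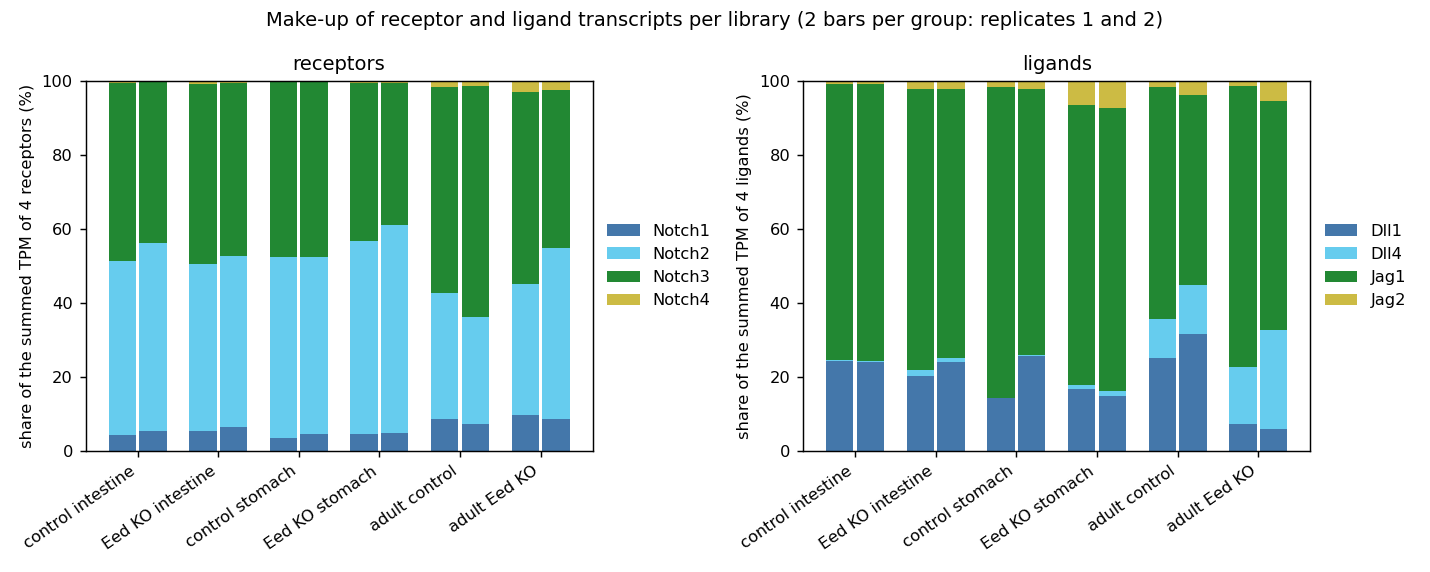
Share (%) of each gene in the summed TPM of the 4 Notch receptors (left) and of 4 Notch ligands (right), with 1 bar per RNA library and 2 libraries per group. *Notch2* and *Notch3* fill most of each receptor bar, *Jag1* is the largest ligand in all 12 libraries, and *Dll4* is visible mainly in the adult bars.

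*Hey1* was the gene of the set that differed between the control organs. *Hey1* encodes a transcriptional repressor that acts downstream of Notch. It was at 9.47 and 10.2 CPM in the control intestine and at 20.3 and 20.01 CPM in the control stomach, with no overlap. It was thus 2.05-fold lower in the intestine (log2 fold change −1.03 ± 0.16 SE, adjusted p = 0.010, edgeR quasi-likelihood test with Benjamini-Hochberg adjustment over 16218 genes). Of the 10 genes, 1 passed an adjusted p under 0.05, beside 6.83% of all genes tested, with 4.43% lower in the intestine. Without any 1 of the 4 libraries *Hey1* no longer passed, while its log2 fold change stayed between −1.09 and −0.96. With a replicate block, 2 of the 10 genes passed, beside 2595 of the 16218 genes tested.

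The other 9 genes did not pass between the control organs. *Jag2*, a Serrate-type ligand, was at 0.674 and 0.673 CPM in the control intestine and at 1.16 and 1.45 CPM in the control stomach, a log2 fold change of −0.95 ± 0.26 SE (adjusted p = 0.076 by edgeR). *Notch4* was at 2.61 and 2.63 CPM in the intestine and 1.54 and 1.94 CPM in the stomach (adjusted p = 0.21). *Dll1*, a Delta-type ligand, was at 20.5 and 23.2 CPM in the intestine and at 10.5 and 19.2 CPM in the stomach, a log2 fold change of 0.56 (adjusted p = 0.38). *Dll4* (0.45 ± 0.63 SE) rested on 3 to 8 counts a library, and the 5 remaining genes, *Jag1*, *Notch1*, *Notch2*, *Notch3* and *Hes1*, had log2 fold changes of 0.19 to 0.53. The median over the 10 genes was 0.25 and that of all genes 0.

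**Figure D2:**
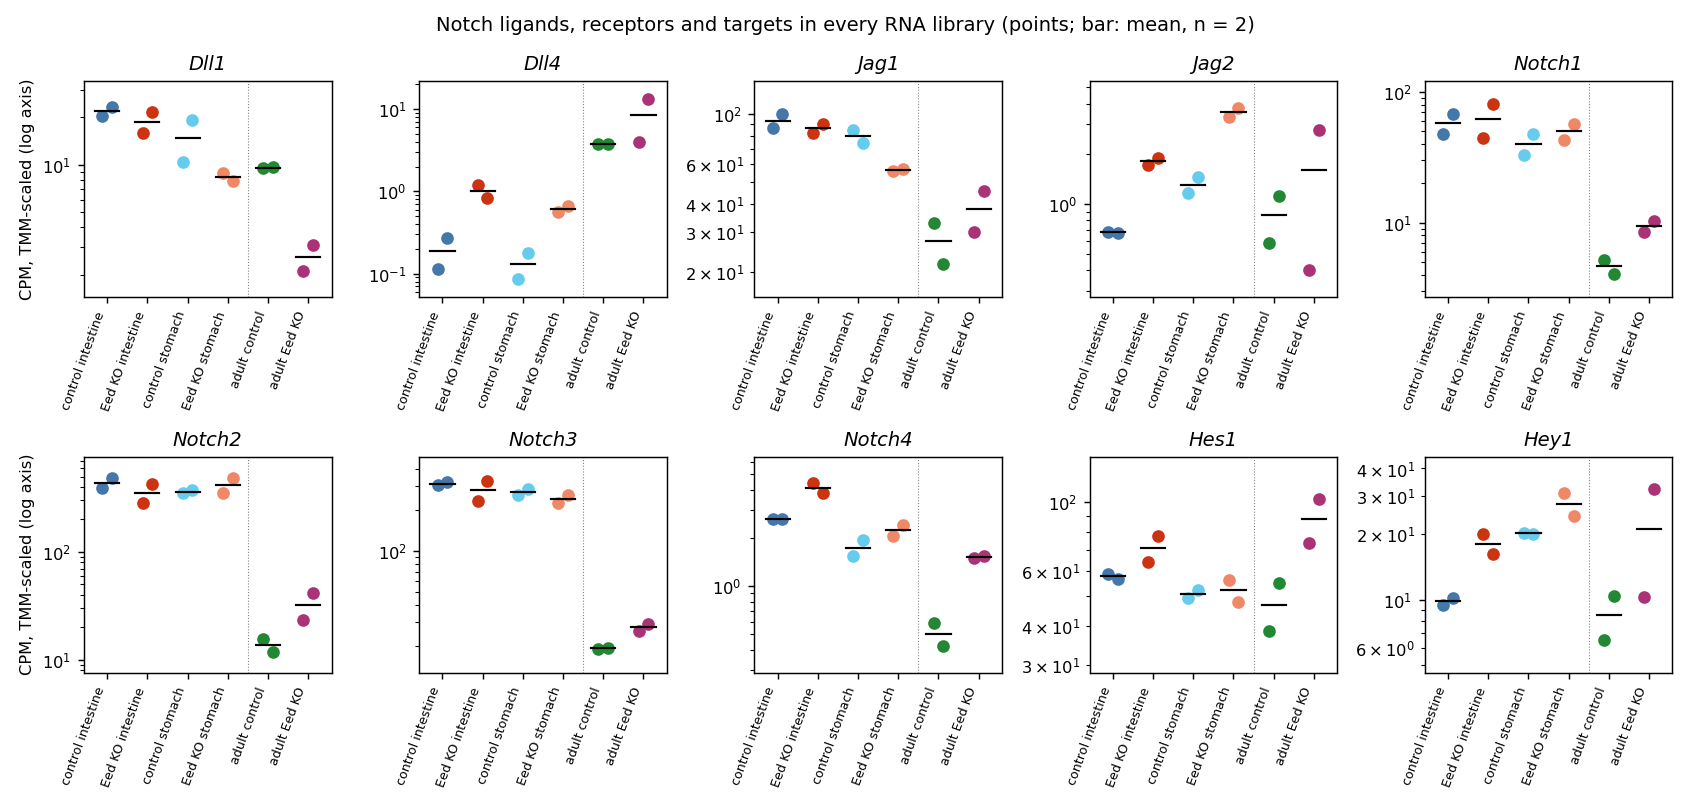
Level of each gene in every RNA library as TMM-scaled CPM on a log axis, with points for libraries and a bar for the mean of 2; the dotted line separates embryonic from adult groups, which were scaled separately. *Dll4* and *Jag2* lie above their controls in both embryonic *Eed* KO organs, whereas *Dll1* lies below its controls in the adult *Eed* KO.

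Loss of *Eed* was accompanied by higher levels of the scarce ligands *Dll4* and *Jag2* in the embryonic intestine. *Dll4* was at 0.112 and 0.269 CPM in the control intestine, from 4 and 8 counts, and at 1.19 and 0.827 CPM in the *Eed* KO intestine, from 45 and 29 counts. Both *Eed* KO libraries lay above both controls, by 5.34-fold (log2 fold change 2.42 ± 0.50 SE, adjusted p = 0.049 by edgeR). *Jag2* was at 0.674 and 0.673 CPM in controls and at 1.72 and 1.88 CPM in *Eed* KO, with no overlap, and was 2.66-fold higher (1.41 ± 0.25, adjusted p = 0.031). The target *Hey1* was at 9.47 and 10.2 CPM in controls and at 20.1 and 16.2 CPM in *Eed* KO, and was 1.84-fold higher (0.88 ± 0.16, adjusted p = 0.035). These were 3 of the 10 genes, all higher, beside 3.06% of all genes tested, with 2.66% higher. Leaving out 1 of the 4 in turn gave adjusted p-values of 0.10 to 0.32 for *Dll4* and 0.067 to 0.20 for *Jag2*, so neither passed on 3 libraries. *Hey1* passed without *Eed* KO intestine replicate 2 (adjusted p = 0.044) and gave up to 0.24 without another. In a fit of the intestine libraries alone, 0 of the 10 genes passed.

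The abundant ligands and the receptors gave no call in the intestine. *Jag1* was at 86.8 and 99.98 CPM in controls and at 82.6 and 90.4 CPM in *Eed* KO, and *Dll1* at 20.5 and 23.2 CPM against 15.9 and 21.5 CPM, and both overlapped. *Notch2* at 388.1 and 484.8 CPM in controls against 282.0 and 424.8 CPM in *Eed* KO also overlapped, as did *Notch1* and *Notch3*. *Notch4* was at 2.61 and 2.63 CPM in controls and 4.41 and 3.82 CPM in *Eed* KO, with no overlap, but did not pass (0.65 ± 0.21, adjusted p = 0.20). *Hes1*, a repressor and direct Notch target, was at 58.8 and 56.6 CPM in controls and 64.2 and 78.0 CPM in *Eed* KO (0.30 ± 0.13, adjusted p = 0.35). Replicate libraries of the large receptor transcripts were far apart in *Eed* KO, with 232.9 and 327.6 CPM for *Notch3* and 44.8 and 80.3 CPM for *Notch1*. The log2 ratio of replicate 2 to replicate 1 was related to transcript length across 13386 genes, with a Pearson r of 0.41 in the *Eed* KO intestine, 0.31 in the *Eed* KO stomach, 0.12 in the control intestine and 0.20 in the control stomach. This is a relation across genes, which are not independent replicates, and its part in the receptor values was not tested.

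In the stomach, *Jag2* was higher and *Jag1* lower in *Eed* KO. *Jag2* was at 1.16 and 1.45 CPM in controls and at 3.33 and 3.76 CPM in *Eed* KO, with no overlap, and was 2.70-fold higher (log2 fold change 1.43 ± 0.23 SE, adjusted p = 0.012 by edgeR). *Jag1*, the major ligand, was at 85.2 and 74.6 CPM in controls and at 56.0 and 56.9 CPM in *Eed* KO. It fell by 0.50 on the log2 scale (± 0.11, 1.42-fold, adjusted p = 0.039), while with spike-in scaling it was 1.91 higher beside a median of 2.39 for all genes. These were 2 of the 10 genes, beside 7.91% of all genes tested. *Dll4* was at 0.0870 and 0.179 CPM in controls and at 0.563 and 0.658 CPM in *Eed* KO, with no overlap, and its log2 fold change of 2.15 ± 0.53 just missed the threshold (adjusted p = 0.052). Without any 1 of the 4 libraries *Jag1* did not pass (adjusted p 0.11 to 0.23), and *Jag2* passed without *Eed* KO stomach replicate 1 alone (adjusted p = 0.039, up to 0.084 otherwise).

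*Dll1*, *Hey1*, *Notch3* and *Notch4* in the stomach did not pass but did not overlap either. The share of all genes without overlap was not computed, and with 2 libraries a group it can arise from the spread between libraries alone. *Dll1* was at 10.5 and 19.2 CPM in controls and at 8.91 and 7.90 CPM in *Eed* KO (−0.82 ± 0.28, adjusted p = 0.14 by edgeR), and without control stomach replicate 1 it passed (adjusted p = 0.046). *Hey1* was at 20.3 and 20.01 CPM in controls and 31.0 and 24.3 CPM in *Eed* KO (0.46 ± 0.16, adjusted p = 0.14). *Notch3* was at 258.1 and 282.9 CPM in controls and 223.9 and 255.7 CPM in *Eed* KO (−0.17 ± 0.16). *Notch4* was at 1.54 and 1.94 CPM in controls and 2.07 and 2.41 CPM in *Eed* KO (0.36 ± 0.22). *Notch1*, *Notch2* and *Hes1* overlapped between the genotypes.

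**Figure D3:**
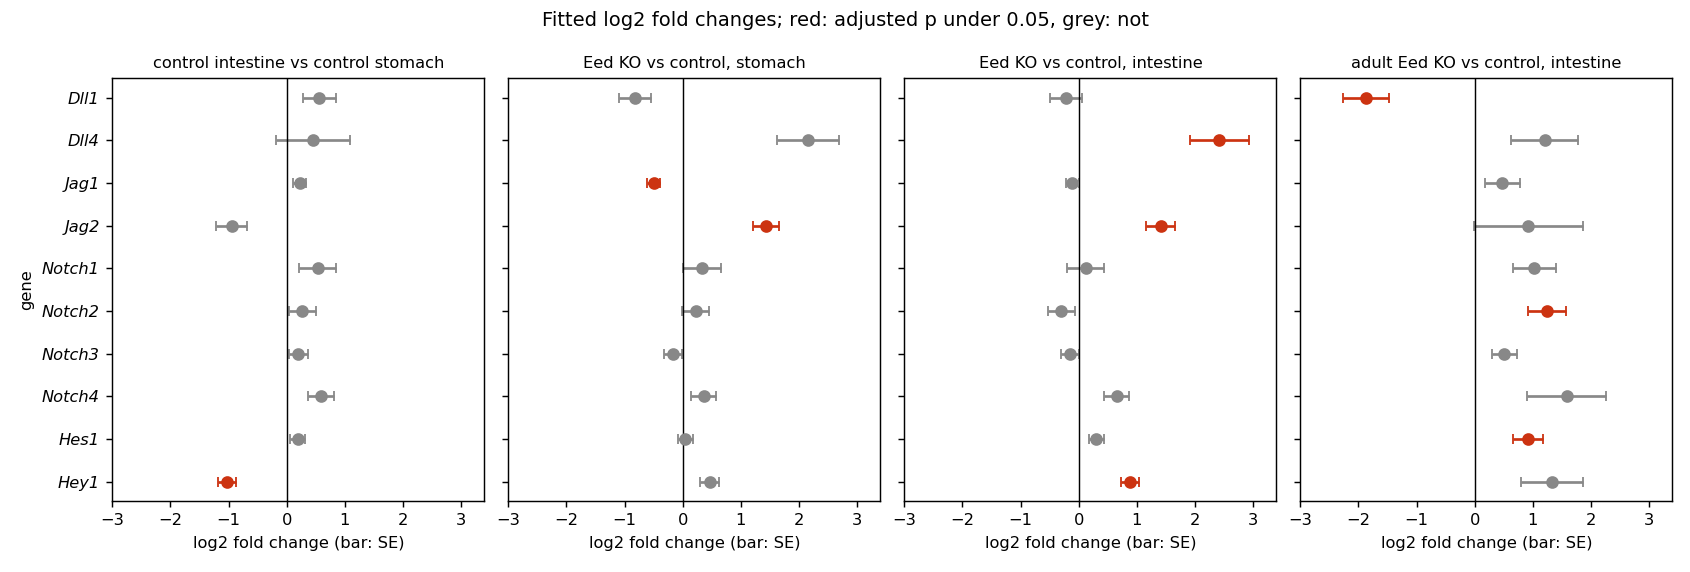
Fitted log2 fold change of each gene (x axis, bars give the SE) in 4 comparisons, with the first named group over the second, red where the adjusted p was under 0.05 and grey otherwise. *Dll4* and *Jag2* sit to the right of 0 in both embryonic *Eed* KO panels, and *Dll1* is the only gene left of 0 in the adult panel.

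In the fit without a replicate block, none of the 10 genes was called for a different response of the organs to loss of *Eed*. The interaction of organ and genotype gave 0 of 10 genes at an adjusted p under 0.2 by edgeR, beside 0.512% of all genes tested. *Jag1* was the 1 gene with an unadjusted p under 0.05 (difference of the log2 fold changes, intestine minus stomach, 0.39 ± 0.16), and DESeq2 also called 0, with 0 at an unadjusted p under 0.05. The difference was −0.02 ± 0.38 for *Jag2* and 0.27 ± 0.79 for *Dll4*, errors that leave room for differences of that size. With a replicate block, the interaction called 2 of the 10 genes, beside 1016 of the 16218 genes tested.

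Between the *Eed* KO organs, *Jag1* and *Jag2* differed in opposite directions. *Jag1* was at 82.6 and 90.4 CPM in the intestine and at 56.0 and 56.9 CPM in the stomach (0.62 ± 0.11, adjusted p = 0.022 by edgeR). *Jag2* was at 1.72 and 1.88 CPM in the intestine and at 3.33 and 3.76 CPM in the stomach (−0.98 ± 0.22, adjusted p = 0.046). They were 2 of the 10 genes, beside 6.33% of all genes, with 2.32% higher and 4.01% lower in the intestine. *Dll1*, at 15.9 and 21.5 CPM in the *Eed* KO intestine against 8.91 and 7.90 CPM in the *Eed* KO stomach, did not pass (1.15 ± 0.28, adjusted p = 0.059), nor did *Notch4* (0.88 ± 0.22, adjusted p = 0.058), *Hey1* (−0.61 ± 0.16, adjusted p = 0.072) or *Hes1* (0.45 ± 0.13, adjusted p = 0.094). *Dll4*, *Notch1*, *Notch2* and *Notch3* had log2 fold changes of −0.25 to 0.72. Leaving out 1 library in turn gave adjusted p-values of 0.037 to 0.11 for *Jag1*, which passed without *Eed* KO intestine replicate 1, and of 0.12 to 0.24 for *Jag2*. Neither passed in a fit of the *Eed* KO libraries alone. With a replicate block, 7 of the 10 genes passed, 4 higher and 3 lower in the intestine, beside 3545 of the 16218 genes tested.

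Endothelial markers were also higher in the embryonic *Eed* KO libraries. The sum of 12 endothelial markers was 24.4 to 29.1 CPM in the control intestine and 26.6 to 27.5 CPM in the control stomach, and 68.3 to 68.9 CPM and 42.7 to 66.5 CPM in the *Eed* KO organs. Of the 12 markers, 7 were higher and 0 lower in each organ. Of all genes, 2.66% were higher in the intestine and 5.96% in the stomach. The median log2 fold change of the markers was 2.01 in the intestine and 2.23 in the stomach, against 0.01 and 0 for all genes. *Sox17* was at 0 in both control intestine libraries, and *Cdh5*, which encodes VE-cadherin, was at 1.43 and 1.82 CPM in control and 10.7 and 11.9 CPM in *Eed* KO intestine. The sorted populations were led by mesenchymal markers, whose 8 genes summed to 13300 CPM or more in every embryonic library. The part of endothelial RNA in the higher *Dll4*, *Jag2* and *Hey1* was not tested.

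**Figure D4:**
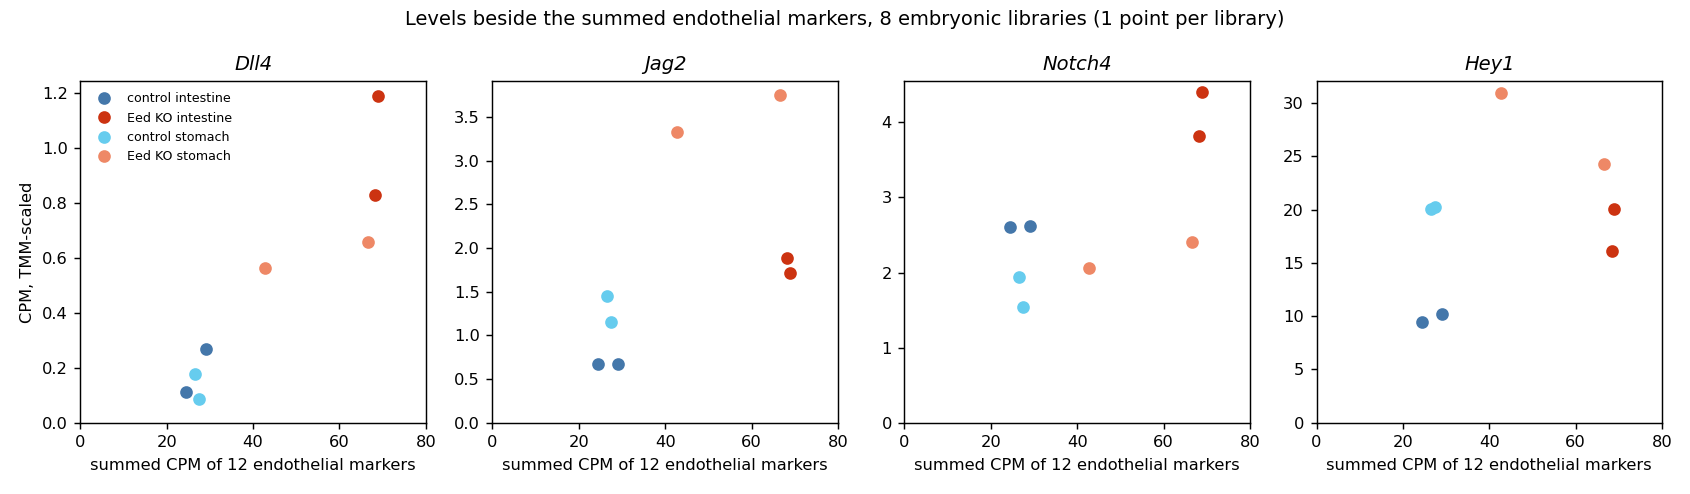
CPM of *Dll4*, *Jag2*, *Notch4* and *Hey1* (y axes, linear and from 0) against the summed CPM of 12 endothelial markers (x axis) in the 8 embryonic libraries, 1 point per library, coloured by group. All 4 control libraries lie between 24.4 and 29.1 CPM of markers and all 4 *Eed* KO libraries at 42.7 CPM or above.

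At the chromatin level, all 10 genes had an open start in all 4 embryonic conditions, the scarce ligands included. A broad ATAC-seq peak covered or lay within 1000 bp of the start in 10 of 10 genes in each list, beside 88.0% to 89.1% of the 16191 genes with a start. Each list came from pooled replicates, so the values carry no replicate error and no test. Fold enrichment at the start was low for *Dll4* (2.77 in the control intestine, 2.77 in the *Eed* KO intestine, 2.95 in the control stomach and 2.92 in the *Eed* KO stomach). *Jag2* was similar, with 3.23, 2.94, 2.76 and 3.05 in the same order. The median over promoters with a peak was 6.46 to 6.91, and *Notch2*, at 6.81 to 7.95, reached it in all 4 lists. *Notch1* had 5.87 to 7.78 at its GENCODE start and 4.2 to 4.51 at its RefSeq start, where its CG dinucleotides were counted. *Jag1* had 4.47 to 5.28, and the values of *Dll1*, *Notch3*, *Notch4* and *Hes1* lay between 2.75 and 3.79. *Hey1* had 6.15 and 5.71 in the control intestine and stomach and 5.25 and 4.65 in *Eed* KO. Beside RNA that was 5.34-fold and 2.66-fold higher in the *Eed* KO intestine, the enrichment at the start was the same for *Dll4* and lower for *Jag2*. In the stomach, where the RNA of *Jag2* was also higher (log2 fold change 1.43), its enrichment was higher in *Eed* KO, at 3.05 against 2.76. That of *Dll4* was 2.92 against 2.95 there. With peaks of a −log10 q of at least 5, the counts were 9, 10, 8 and 9 in that order, and the starts lost were those of *Notch4* and, in the control stomach, *Jag2*.

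**Figure D5:**
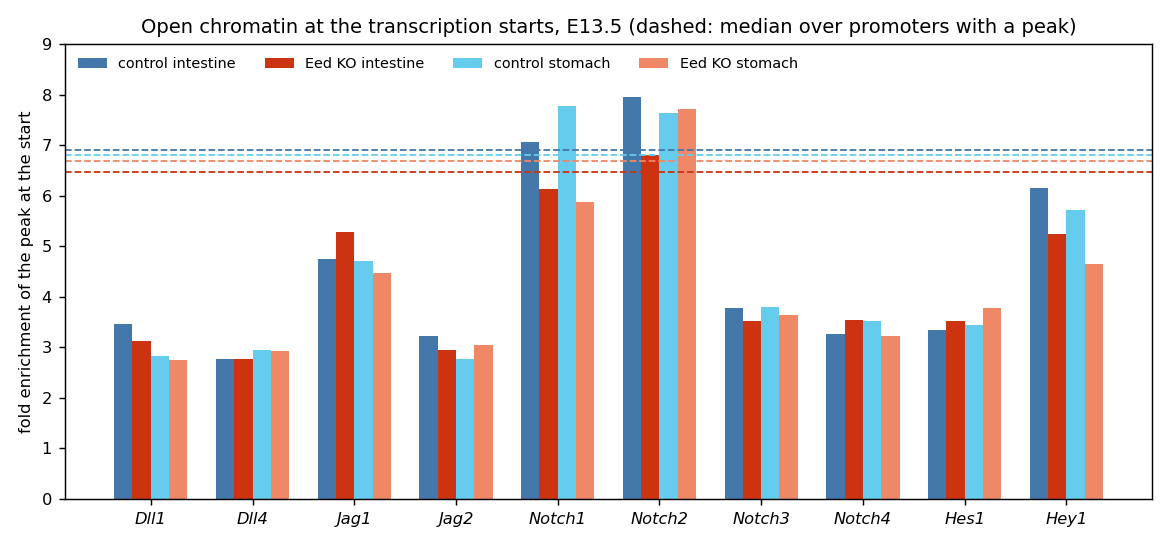
Fold enrichment over background of the ATAC-seq peak at the GENCODE start of each gene (y axis from 0), with 1 bar per E13.5 condition from pooled replicates; dashed lines in the same colours give the median over promoters with a peak. *Notch2* reaches its line in all 4 lists, and *Dll4*, *Jag2*, *Dll1*, *Notch3*, *Notch4* and *Hes1* stay under 4.

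Around the genes, from 10000 bp before to 10000 bp after each, peaks of the 4 lists merged into 85 regions. Of these, 47 (55.3%) were in all 4 lists, 3 (3.53%) in both *Eed* KO lists only and 0 in both control lists only, beside 46.04%, 4.18% and 2.15% of the 162113 regions of the genome. The 3 regions of the *Eed* KO lists lay in the bodies of *Jag1* (chr2:137098417-137099573), *Jag2* (chr12:112911991-112912403) and *Notch2* (chr3:98045698-98046677), with fold enrichments of 2.46 to 3.27. The strongest peak near *Dll4* was downstream of the gene (chr2:119337517-119338422), with 7.87, 6.58, 7.09 and 7.31 in the order given above, and was in all 4 lists. *Hey1* had 1 region, over its start, and *Notch2* 27.

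Adult stromal cells had a lower level of *Notch2* and *Notch3* and a higher level of *Dll4* per length than the embryonic intestine. Adult control libraries held 3.84 and 2.85 TPM of *Notch2*, 6.22 and 6.17 TPM of *Notch3*, 2.52 and 2.44 TPM of *Dll4* and 49.3 and 67.9 TPM of *Hes1*. The summed receptor TPM was 11.2 and 9.87 in the adult controls against 231 and 276 in the control intestine at E13.5. Cre driver, sort, library kit and strand protocol all differed between the stages, so age cannot be told apart from them and no test was made.

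In the adult intestine, *Dll1* was lower and *Notch2* and *Hes1* higher in *Eed* KO. *Dll1* was at 9.51 and 9.60 CPM in controls and at 2.11 and 3.09 CPM in *Eed* KO, with no overlap, and was 3.65-fold lower (log2 fold change −1.87 ± 0.40 SE, adjusted p = 0.017, edgeR over 15039 genes). *Notch2* was at 15.5 and 11.8 CPM in controls and at 23.2 and 41.3 CPM in *Eed* KO (1.24 ± 0.33, 2.36-fold, adjusted p = 0.036). *Hes1* was at 38.6 and 54.7 CPM in controls and at 74.1 and 102.5 CPM in *Eed* KO (0.92 ± 0.26, 1.89-fold, adjusted p = 0.040). These were 3 of the 10 genes, beside 23.5% of all genes tested, a share of the same order. *Dll1* passed without either *Eed* KO library and did not pass without either control library, with an adjusted p of 0.054 at most. *Notch2* did not pass without adult control replicate 2 or adult *Eed* KO replicate 2 (adjusted p up to 0.16), and *Hes1* did not pass without adult control replicate 1 or adult *Eed* KO replicate 2 (up to 0.20). With upper-quartile scaling, which placed the median of all genes 0.15 lower, *Dll1* remained the 1 gene that passed. The adult kit kept no strand, and exons of *Dll1* overlap *A930024N18Rik* on the opposite strand, so their reads cannot be told apart.

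Among the other adult genes, *Dll4*, *Jag2* and *Hey1* spread with 1 library. *Dll4* was at 3.73 and 3.71 CPM in controls and at 4.01 and 13.1 CPM in *Eed* KO (1.2 ± 0.58, adjusted p = 0.18 by edgeR), and it ranged from a log2 fold change of 0.10 without adult *Eed* KO replicate 2 to 1.79 (adjusted p = 0.018) without replicate 1. *Jag2* was at 0.585 and 1.12 CPM against 0.401 and 2.78 CPM, and *Hey1* at 6.51 and 10.4 CPM against 10.2 and 32.2 CPM, and both overlapped, although *Hey1* passed without adult *Eed* KO replicate 1 (adjusted p = 0.0095). The same *Eed* KO library, replicate 2, held the highest value of each and the higher endothelial marker sum of 331 CPM, against 220 CPM in the other *Eed* KO library and 156 to 161 CPM in controls. Of these 12 markers, 2 passed as higher and 0 as lower in the adult, beside 14.1% and 9.39% of all genes. The count of higher markers was near that share. *Pecam1*, the highest of them in *Eed* KO, was at 41.9 and 35.5 CPM in controls and 91.6 and 118 CPM in *Eed* KO. *Sox17* was at 6.81 and 8.76 CPM against 2.51 and 9.82 CPM, so the markers did not all move together between the genotypes. Within *Eed* KO, every one of the 12 was higher in replicate 2 than in replicate 1. *Notch1* was at 5.20 and 4.06 CPM in controls and 8.43 and 10.3 CPM in *Eed* KO (1.02 ± 0.37, adjusted p = 0.091), and *Notch4* at 0.585 and 0.420 CPM against 1.51 and 1.55 CPM (1.58 ± 0.68, adjusted p = 0.14), on 6 to 20 counts. The sorted populations themselves differed. The sum of 10 leukocyte markers was 277 to 432 CPM in controls and 9230 to 9490 CPM in *Eed* KO. Of these 10, 8 were higher and 1 lower, beside 14.1% and 9.39% of all genes. Beside the same shares, of 7 pericyte markers 3 were lower and 0 higher. Their sum, 11600 to 13400 CPM in controls and 3380 to 4560 CPM in *Eed* KO, was mostly *Rgs5* (13200 and 11300 CPM against 4330 and 3070 CPM), and *Ndufa4l2* was at 68.9 and 109 CPM in controls and 140 and 202 CPM in *Eed* KO. Their part in the adult differences was not tested.

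Of 46 other genes of the pathway, 43 were tested in the embryo and 38 in the adult, and few passed. *Rbpj*, the DNA-binding partner of the Notch intracellular domain, was lower in *Eed* KO in both embryonic organs. It was at 152.6 and 138.4 CPM in the control intestine and at 85.5 and 86.6 CPM in the *Eed* KO intestine (−0.76 ± 0.09, 1.69-fold, adjusted p = 0.0075 by edgeR). In the stomach it was at 117.4 and 122.6 CPM in controls and at 76.1 and 73.3 CPM in *Eed* KO (−0.68 ± 0.09, 1.61-fold, adjusted p = 0.0052). Its libraries did not overlap, and with spike-in scaling its log2 fold changes of 1.70 (stomach) and 1.09 (intestine) turned positive but lay below the shifted medians of all genes. Without control intestine replicate 1 the adjusted p was 0.074, and without control stomach replicate 2 it was 0.051. *Dlk1*, a secreted or membrane-bound relative of the Delta ligands, was at 759.7 and 812.1 CPM in the control stomach and 1218 and 1483 CPM in the *Eed* KO stomach (0.78 ± 0.14, adjusted p = 0.018), and did not pass without 3 of the 4 libraries in turn (adjusted p 0.11 to 0.13). Thus 1 rose and 1 fell of 43 in the stomach, beside 5.96% of all genes higher and 1.95% lower, and 0 rose and 1 fell in the intestine, beside 2.66% and 0.407%. The median log2 fold change of the 43 genes was 0.13 (stomach) and 0.10 (intestine).

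*Dtx4*, a member of the Deltex family of ubiquitin ligases, was the pathway gene that separated the organs. It was at 197.5 and 185.0 CPM in the control intestine and 70.1 and 62.1 CPM in the control stomach (1.53 ± 0.19, 2.89-fold, adjusted p = 0.0034 by edgeR), and the *Eed* KO organs differed likewise (1.63 ± 0.19, adjusted p = 0.0039). It was 1 of 43 in each, beside 2.4% of all genes higher in the control intestine and 2.32% higher in the *Eed* KO intestine. The other Notch targets that could be tested, listed in full, were *Heyl* at 23.0 to 43.3 CPM, *Hey2* at 7.02 to 24.99 CPM, *Hes6* at 15.6 to 24.2 CPM, *Nrarp* at 2.11 to 7.67 CPM and *Hes7* at 0.457 to 0.740 CPM over the 8 embryonic libraries, and none passed in any comparison.

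Among the adult pathway genes, 4 rose and 2 fell of 38 tested, beside 14.1% and 9.39% of all genes. *Lfng*, a glycosyltransferase that modifies Notch receptors, was at 0.951 and 1.75 CPM in controls and at 12.9 and 18.3 CPM in *Eed* KO (3.52 ± 0.45, 11.4-fold, adjusted p = 0.0022 by edgeR). *Rbpj* was higher here, at 41.6 and 38.7 CPM in controls and 74.6 and 79.2 CPM in *Eed* KO (0.94 ± 0.18, adjusted p = 0.011). The protease gene *Adam17* (1.00 ± 0.20, adjusted p = 0.013) and the γ-secretase subunit gene *Psenen* (0.72 ± 0.19, adjusted p = 0.036) were also higher. *Poglut1*, a glucosyltransferase of Notch receptors (−0.86 ± 0.20, adjusted p = 0.023), and *Numb*, an inhibitor of Notch (−0.91 ± 0.22, adjusted p = 0.024), were lower. Of these 6, *Lfng* alone passed in every fit without 1 library. *Rbpj* had an adjusted p of 0.051 and 0.063 without either control library, and the other 4 lost the call without 1 to 3 of the 4 libraries.

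The genes most alike to each member were taken by the Pearson r of log2 CPM over the 8 embryonic libraries, among 13386 genes with a mean of at least 1 CPM. With so many genes and 8 libraries of 4 groups, high values arise for any pattern, so these names are a description with no p. *Dll4*, with a mean of 0.485 CPM, was not compared. *Jag2* was most like *Stac2* (r = 0.996), *Klf4* (0.994) and *Naprt* (0.993). *Dll1* was most like *Adamdec1* (0.985), *Nde1* (0.983) and *Pbk* (0.976), and *Jag1* like *Carhsp1* (0.980), *Zbtb12* (0.968) and *Kcnh2* (0.967). Among the receptors, *Notch1* was most like *Clasrp* (0.991), *Col4a2* (0.989) and *Sh2b3* (0.981), and *Notch2* like *Sirt2* (0.969), *Nub1* (0.961) and *Gm340* (0.954). *Notch3* was most like *Kntc1* (0.992), *Chtf18* (0.992) and *Cobl* (0.984), and *Notch4* like *Hcar1* (0.985), *Kbtbd11* (0.965) and *Trh* (0.964). Of the targets, *Hes1* was most like *Plaur* (0.970), *F730043M19Rik* (0.968) and *1700018A04Rik* (0.949), and *Hey1* like *Gm11837* (0.988), *Scn7a* (0.978) and *March8* (0.973).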

How the data were processed

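RNA was measured in 8 embryonic and 4 adult libraries. Per the labels, the authors trimmed reads with Trimmomatic 0.32, aligned them to mm10 with STAR 2.5.1b and deposited raw counts per gene from featureCounts. The embryonic kit kept strand and the adult kit did not, and whether counting used strand is not given in the sources used here for the embryonic files. For ATAC-seq, aligned with BWA 0.7.8, the authors deposited broad peaks called by MACS2 2.1.2 on pooled replicates, with a fold enrichment (a ratio over background) and a −log10 q-value per peak.

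Counts were tested with edgeR 4.0.16 (TMM, filterByExpr, quasi-likelihood F-test, Benjamini-Hochberg adjustment over all genes tested), in 1 fit of the 8 embryonic libraries (16218 genes) and another of the 4 adult libraries (15039 genes). A gene passed at an adjusted p under 0.05, or 0.2 for the interaction of organ and genotype. The SE is the size of the log2 fold change divided by the square root of F. The fits were tested on simulated counts. With 2 libraries a group an exact permutation test of a single gene cannot go below p = 0.333. TPM was computed from the counts and the gene lengths in the adult files. A start was called open where a peak lay within 1000 bp of it.

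The 10 genes, the 46 other pathway genes and the marker lists were chosen with earlier results of these data known. All 10 genes are named in every comparison, other pathway genes where they passed (the single values of 1 pathway gene are not reported here), and for each of the 10 the 3 genes most alike. Alternatives were DESeq2 1.42.0, upper-quartile and spike-in scaling, no filter on low counts, a replicate block, 1 factor of unwanted variation from the spike-ins, a fit of the compared groups alone, and leaving out each library.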

Additional observations from a re-analysis of the deposited data

Results flagged for a closer look

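The stomach was compared with the intestine at E13.5, and the intestine at E13.5 with the adult intestine. Of the genes reported here, 3 had every *Eed* KO library on one side of its controls in one setting and on the opposite side in the other. The share of all genes with this pattern was not computed. With so few libraries a group, the pattern can arise from the spread between libraries alone. The count is therefore a description and does not show that these genes respond differently. For *Rbpj* the log2 fold change of *Eed* KO over control was −0.76 in the E13.5 intestine and 0.94 in the adult intestine. For *Adam17* the values were −0.11 and 1.00 in the same order. These differences between stages were not tested, since the Cre driver, the age, the sort and the library kit differed together. At E13.5, *Dtx3* had a log2 fold change of 0.19 in stomach cells and −0.16 in intestinal cells, and the edgeR interaction of organ and genotype did not pass (adjusted p = 0.77).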

How the results depend on the processing

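Scaling by spike-ins moved the median of all genes by 0.30 between the control organs, 2.39 in the *Eed* KO stomach, 1.85 in the *Eed* KO intestine, −0.53 for the interaction, −0.24 between the *Eed* KO organs and −0.42 in the adult (log2). It turned the direction of *Jag1* to 1.91, *Notch3* to 2.26 and *Rbpj* to 1.70 for the stomach, and of *Dll1* to 1.73, *Jag1* to 1.78, *Notch2* to 1.69, *Notch3* to 1.81 and *Rbpj* to 1.09 in the intestine. Relative to the shifted median, *Jag1* in the stomach was at −0.48, and *Dll4* at 2.12 for the stomach and 2.29 for the intestine.

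Counts of the 10 genes and of all genes that passed, given in that order, moved by over 1.5 times as follows. Between the control organs, from 1 and 1107, they were 0 and 155 with spike-in scaling, 2 and 2595 with the replicate block, and 1680 for all genes with a spike-in factor. In the stomach, from 2 and 1283, they were 9 and 15438 with spike-in scaling, 1 and 725 with the factor, 4 of the 10 with no filter and 2474 of all with the block. In the intestine, from 3 and 497, they were 10 and 13688 with spike-in scaling, 0 and 253 with the compared groups alone, 1 of the 10 with the factor, and 889, 1033 and 923 of all with DESeq2, no filter and the block. For the interaction, from 0 and 83, they were 2 and 1016 with the block, and 260, 20, 298 and 271 of all with DESeq2, spike-in scaling, no filter and the factor. Between the *Eed* KO organs, from 2 and 1026, they were 0 and 115 with spike-in scaling, 7 and 3545 with the block, 6 and 1959 with the factor, 0 and 425 with the compared groups alone, and 4 and 5 of the 10 with DESeq2 and no filter. In the adult, from 3 and 3530, they were 0 and 1440 with the factor, and 1 of the 10 with upper-quartile and with spike-in scaling. The causes were not tested.

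Without 1 library in turn, the counts were 0 and 394 to 538 between the control organs, 0 to 1 and 367 to 742 in the stomach, 0 to 1 and 74 to 392 in the intestine, 0 and 27 to 108 for the interaction, 0 to 1 and 343 to 682 between the *Eed* KO organs and 1 to 5 and 2424 to 3522 in the adult, where a group left with 1 library was assumed to vary like the others. Of the 470 log2 fold changes under another setting, 360 and, of the 324 without 1 library, 233 kept their side of the threshold and moved by less than their SE if not called. The 48 shares are the same by construction when taken from CPM per kilobase, since the library scaling cancels in a share, so this is no check. The 12 counts of open starts under other limits stayed between 8 and 10.

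The labels do not tie libraries of the same number, which correlated in their deviations by 0.391 between the control organs, 0.784 between the *Eed* KO organs, 0.187 and 0.122 between the genotypes and −0.073 in the adult. The methods separate the stomach and the intestine of each animal, but do not state that equal numbers mark the same animals. The replicate block therefore assumes a pairing that is not stated, and the main fit assumes none.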

Other observations

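Markers of other cell types gave these values beside the Notch genes. Enteric neural crest markers summed to 195 to 208 CPM in the control intestine and 97.6 to 169 CPM in the *Eed* KO intestine, and to 55.4 to 67.0 CPM and 66.2 to 75.5 CPM in the control and *Eed* KO stomach. Leukocyte markers stayed at 0.957 to 4.37 CPM in all 8 embryonic libraries. In the adult, the 8 mesenchymal markers summed to 11400 to 11900 CPM in controls and 3480 to 4980 CPM in *Eed* KO, and smooth muscle markers to 1910 to 2360 CPM and 3230 to 3820 CPM.

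Depth limits the scarce ligands most. *Dll4* had 3 to 8 counts in the embryonic controls and *Jag2* 20 to 57, so their fold changes rest on few reads. With 2 libraries a group, most calls near the threshold did not hold without 1 library, and a gene that did not pass is not shown to be equal between groups. *Dll1*, *Dll4*, *Notch1* and *Notch3* overlap exons of genes on the opposite strand, whose reads cannot be told apart where strand was not used. Peak lists of pooled replicates carry no error.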
